A study of Mus musculus with 10 samples.

Results

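The genes described here encode the subunits of the respiratory chain and of ATP synthase, with the assembly factors that share their names. They were chosen by symbol: every amplicon whose gene name starts with Nduf (complex I), Uqcr (complex III) or Atp5 (complex V), together with Sdha to Sdhd (complex II), Cyc1 (complex III) and the Cox4 to Cox8 families (complex IV) without Cox7a1 and Cox8b, and with at least 15 reads over all libraries. The rule found 80 of the 23930 genes in the count table, 40 for complex I, 4 for complex II, 9 for complex III, 14 for complex IV and 13 for complex V. Of these, 77 passed the filter on low counts and were tested among 12719 genes. The 3 that did not pass were Cox8c, Cox7b2 and the pseudogene Atp5c1-ps. Apart from the minimum of reads, the rule uses no measured value.

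Messenger RNA was measured in epididymal white adipose tissue, the visceral fat pad beside the epididymis, of male C57BL/6 mice aged 18 weeks. The groups were 5 Srgn-knockout (Srgn-/-) mice, deficient in serglycin, a proteoglycan of secretory granules, and 5 wild-type (Srgn+/+) mice. Both groups had been fed a diet high in sucrose and fat for 8 weeks, so the comparison of the genotypes was made in diet-fed fat alone. Each library was made from 1 animal with a kit that amplifies 1 short target per gene, held 7824764 to 10757779 reads, and gave between 2.03% and 2.30% of its reads to the 80 genes.

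Complexes I and II pass electrons from NADH and succinate to coenzyme Q, complex III passes them on to cytochrome c, and complex IV hands them to oxygen. Complexes I, III and IV pump protons across the inner mitochondrial membrane, and ATP synthase, also called complex V, uses the returning protons to make ATP. In white fat cells this machinery serves lipid synthesis and breakdown, while in brown and beige fat cells uncoupling protein lets the protons return without making ATP. The subunits encoded by mitochondrial DNA are not analysed here.

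Srgn itself, the check of the labels, had 3, 1, 0, 0 and 12 reads in Srgn-knockout 1 to 5, against 776, 1047, 1301, 851 and 1005 reads in wild-type 1 to 5. Levels below are normalized counts scaled to a common library size (CPM). Fold changes are on the log2 scale, positive where Srgn-knockout fat was higher, and SE is their standard error. Levels of different genes are not compared, because each amplicon is amplified with its own efficiency. Fewer cells of a type and less RNA per cell cannot be told apart in bulk tissue. Many of these genes have processed pseudogenes or close relatives, and the specificity of the amplicons was not tested.

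The genes of the respiratory chain and ATP synthase did not differ past the threshold between the genotypes. With the edgeR quasi-likelihood test and Benjamini-Hochberg adjustment over all genes, 0 of 77 members rose and 0 fell, against 0% and 0.00786% of the 12719 tested genes, the single call among all genes being Srgn. The smallest adjusted p among the members was 0.216, for Uqcr10. At an unadjusted p under 0.05, 6 members (7.79%) had higher values and 4 (5.19%) had lower values in Srgn-knockout fat. Over all tested genes these shares were 6.77% and 6.06%, so the members' shares were near this background. Among genes with a mean of at least 100 CPM, 5 of 55 members were higher and 4 lower, beside 91 and 166 of 1918 genes. The numbers moved with single libraries and with scaling. Without Srgn-knockout 1, 12 members (15.6%) were higher, beside 8.01% of all tested genes, and with library totals alone or the authors' RPM 13 (16.9%) were higher, beside 9.40% and 9.21%. Without Srgn-knockout 4 or without wild-type 5, 7 members (9.09%) were lower, beside 5.91% and 6.02% of all tested genes. Every Srgn-knockout library lay above every wild-type library for 2 members (2.60%), Ndufb10 and Atp5c1, and below for 1 (1.30%), Atp5g3, where 1.39% and 1.38% of all tested genes showed such a gap.

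For most members the data bound the difference to within ±0.5 on the log2 scale, which leaves room for smaller differences. The 77 fold changes had a median of -0.01 and lay between -0.74 and 0.45, with 37 higher and 40 lower, beside a median of -0.00138 over all tested genes, 6326 higher and 6393 lower. Genes with a mean of at least 100 CPM had a median of -0.05, with 743 higher and 1175 lower. The balance turned with scaling, to 46 members higher and 31 lower with library totals alone, where all tested genes had 7421 higher and 5298 lower, and to 45 and 32 with the authors' RPM. The 95% interval of the log2 fold change lay wholly within ±0.5 for 62 of the 77 members, and for 5658 of the 12719 tested genes. Among genes with a mean of at least 100 CPM this held for 49 of 55 members and for 1371 of 1918 genes. The median SE was 0.104 for the members, 0.165 for all tested genes and 0.115 for those of at least 100 CPM. The spread between animals of a group was likewise smaller for the members, with a median SD of 0.152 on the log2 scale, against 0.263 for all tested genes and 0.183 for those of at least 100 CPM. Whether these spreads differ was not tested.

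**Figure D1:**
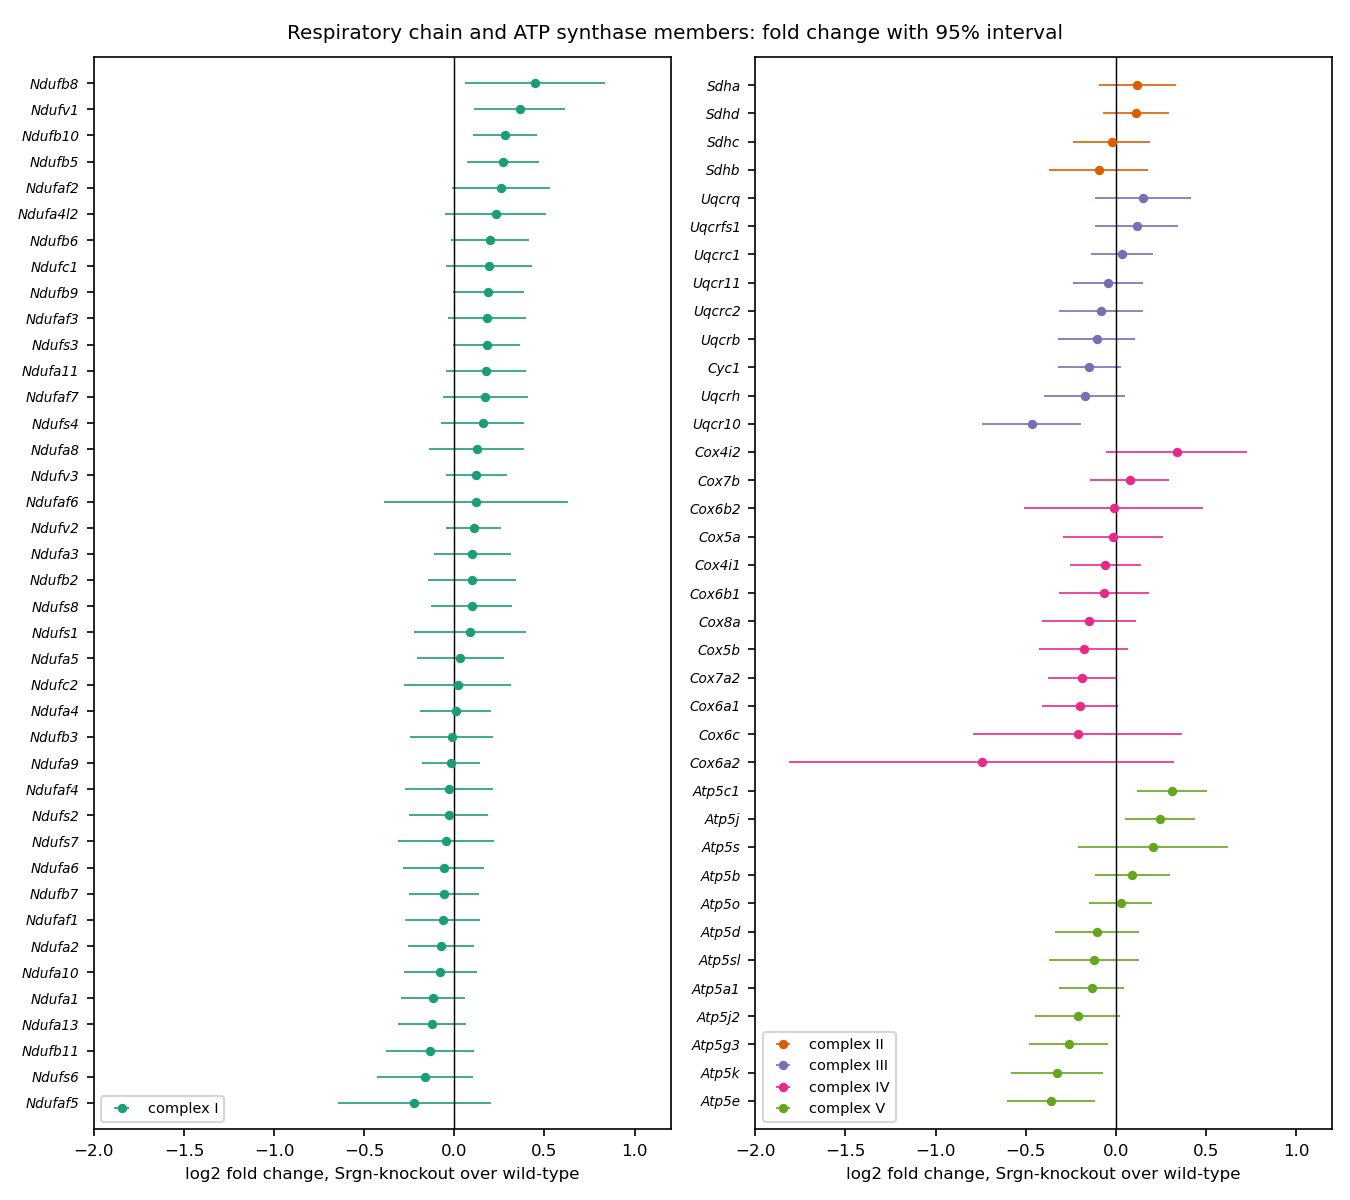
Log2 fold change (Srgn-knockout over wild-type) of the 77 tested members with its 95% interval, by complex and ordered by fold change within each. Most points lie between -0.5 and 0.5; the widest interval belongs to Cox6a2, a gene of few reads.

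The sequences before the transcription starts of 5 members are shown, the 3 with the smallest p and 2 small ATP synthase subunits that differ in sign from Atp5c1, because many genes of this group share binding motifs of NRF1, GABPA and YY1, transcription factors known for driving nuclear genes of mitochondria. They are the 250 bases before the annotated start, read in the direction of transcription, from RefSeq on build GRCm38.p6, while the deposited counts were made on mm9. Capitals mark matches to GCGCATGC (NRF1), CCGGAAG (GABPA) or AGATGGCGG (YY1) on either strand, and all 5 genes lie on the minus strand. Uqcr10, a small subunit of complex III with lower values in Srgn-knockout fat, has the window chr11:4704345-4704594. Atp5c1, the rotating central shaft of ATP synthase with higher values, has 2 annotated starts, and the window of one is chr2:10080433-10080682. Ndufb10, an accessory subunit of complex I with higher values, has the window chr17:24724424-24724673. Atp5k and Atp5e, small subunits of ATP synthase with lower values, have the windows chr5:108434400-108434649 and chr2:174464102-174464351.
Uqcr10: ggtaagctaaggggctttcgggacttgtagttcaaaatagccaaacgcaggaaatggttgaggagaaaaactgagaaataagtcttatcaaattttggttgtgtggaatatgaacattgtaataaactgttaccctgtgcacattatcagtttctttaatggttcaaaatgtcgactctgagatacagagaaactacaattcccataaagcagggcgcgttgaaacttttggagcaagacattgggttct
Atp5c1: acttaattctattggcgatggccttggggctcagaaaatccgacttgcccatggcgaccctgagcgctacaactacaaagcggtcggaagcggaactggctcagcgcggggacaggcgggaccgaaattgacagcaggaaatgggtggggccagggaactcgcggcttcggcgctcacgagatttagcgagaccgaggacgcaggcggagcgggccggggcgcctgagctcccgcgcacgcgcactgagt
Ndufb10: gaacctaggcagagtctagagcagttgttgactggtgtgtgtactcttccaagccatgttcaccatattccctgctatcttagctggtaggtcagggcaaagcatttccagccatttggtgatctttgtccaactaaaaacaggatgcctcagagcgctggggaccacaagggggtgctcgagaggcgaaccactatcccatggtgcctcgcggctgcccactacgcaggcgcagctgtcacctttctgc
Atp5k: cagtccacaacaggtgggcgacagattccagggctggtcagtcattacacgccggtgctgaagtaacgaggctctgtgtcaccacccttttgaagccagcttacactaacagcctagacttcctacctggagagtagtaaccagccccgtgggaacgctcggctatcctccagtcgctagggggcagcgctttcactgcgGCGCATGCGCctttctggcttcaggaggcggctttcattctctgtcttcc
Atp5e: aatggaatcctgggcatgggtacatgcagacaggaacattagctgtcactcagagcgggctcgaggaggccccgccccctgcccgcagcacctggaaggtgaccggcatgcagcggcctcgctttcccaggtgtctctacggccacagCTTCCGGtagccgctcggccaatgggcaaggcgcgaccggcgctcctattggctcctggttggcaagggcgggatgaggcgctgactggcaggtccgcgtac
In these windows an NRF1 match stood before Atp5k and a GABPA match before Atp5e, and there was none of the 3 motifs before Uqcr10, Atp5c1 and Ndufb10. RefSeq promoters, from 250 bases before to 50 bases after the start, were found for 62 of the 80 members, as 67 windows because some members have several starts. NRF1 letters occurred in 14.9% of the member windows, 4.79% of the 12765 windows of tested genes and 2.71% of all 32851 windows. GABPA letters occurred in 22.4%, 16.1% and 8.86% of the same sets in that order, and YY1 letters in 10.4%, 2.17% and 1.07%. The SP1 letters GGGCGG, which neither contain nor lie within these motifs, occurred in 43.3% of member windows, 60.4% of those of tested genes and 35.7% of all. At least 1 of the NRF1, GABPA and YY1 motifs stood in 27 of the 67 member windows (40.3%), beside 21.4% of the windows of tested genes and 11.8% of all windows. Of the 10 members at an unadjusted p under 0.05, 3 had such a window, Atp5k and Atp5e with lower values and Atp5j with higher values. Uqcr10 and Atp5g3, also with lower values, had none. A link between motif and direction was not tested. A match of letters describes the window and does not show binding.

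Complex I, the entry point for electrons from NADH, had 25 members with higher and 15 with lower values in Srgn-knockout fat, a median log2 fold change of 0.10. Higher values prevailed in each class by count: 5 of 7 genes of the catalytic core, 14 of 24 accessory subunits and 4 of 7 assembly factors, with medians of 0.10, 0.07 and 0.12. The 25 higher members also include Ndufa4 and Ndufa4l2, which are counted here by name and belong to none of these classes. At an unadjusted p under 0.05, 4 of the 40 complex I genes were higher and 0 lower, beside 6.77% and 6.06% of all tested genes. None passed after adjustment, and the split by direction was not tested.

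Ndufv1, the core subunit that binds NADH, had 124, 167, 172, 156 and 145 CPM in Srgn-knockout 1 to 5 and 135, 117, 128, 119 and 94.2 CPM in wild-type 1 to 5. The means were 153 ± 18.9 CPM in Srgn-knockout fat and 119 ± 15.5 CPM in wild-type (SD, n = 5 each), a difference of 0.36 on the log2 scale (SE 0.116, edgeR adjusted p = 0.255). Srgn-knockout 1 lay among the wild-type libraries, and wild-type 5 was the lowest of all. Ndufs3, another core subunit, chosen after its values were seen, had 288 ± 24 CPM in Srgn-knockout fat and 254 ± 15.6 CPM in wild-type (log2 0.18, edgeR adjusted p = 0.399).

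The accessory subunits of the membrane arm, which surround the proton-pumping core, held the other 3. Ndufb10 had 173, 193, 202, 183 and 186 CPM in Srgn-knockout 1 to 5 and 160.3, 147, 162, 165 and 136 CPM in wild-type 1 to 5. Its groups did not overlap, although the lowest Srgn-knockout library lay close to the highest wild-type one. The means were 187 ± 10.9 CPM in Srgn-knockout fat and 154 ± 12 CPM in wild-type, a difference of 0.28 on the log2 scale (SE 0.0821, edgeR adjusted p = 0.228). Ndufb8 had 83.1, 132, 140.3, 107 and 124 CPM in Srgn-knockout 1 to 5 and 106, 84.9, 98, 85.8 and 55.6 CPM in wild-type 1 to 5. This was the member with the highest fold change (log2 0.45, SE 0.178, edgeR adjusted p = 0.338), and Srgn-knockout 1 and wild-type 5 were the lowest libraries of their groups. Ndufb5 had 67.2, 79.9, 78.3, 68.5 and 70.1 CPM in Srgn-knockout 1 to 5 and 64.4, 54.9, 67.2, 60.2 and 54.9 CPM in wild-type 1 to 5. Its groups met at 67.2 CPM, and its fold change was 0.27 (SE 0.0914, edgeR adjusted p = 0.270).

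The lowest fold change in complex I belonged to Ndufaf5, an assembly factor, with 7.61 ± 2.0 CPM in Srgn-knockout fat and 8.89 ± 1.47 CPM in wild-type (log2 -0.22, edgeR adjusted p = 0.654). Ndufa4 carries a complex I name but is now counted as a subunit of complex IV, and it had 813 ± 40.9 CPM in Srgn-knockout fat and 809 ± 71.3 CPM in wild-type (log2 0.01, 95% interval -0.19 to 0.21). Its relative Ndufa4l2, known as a target of hypoxia signalling, had 29.5 ± 2.96 CPM in Srgn-knockout fat and 25.1 ± 4.24 CPM in wild-type (log2 0.23, edgeR adjusted p = 0.478).

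Complex II, succinate dehydrogenase, had 2 members with higher and 2 with lower values, split within both its catalytic head and its membrane anchor. Sdha, the flavoprotein of the head, had 211, 262, 275, 253 and 223 CPM in Srgn-knockout 1 to 5 and 237, 197, 241, 217 and 234 CPM in wild-type 1 to 5 (log2 0.12, edgeR adjusted p = 0.623). Sdhb, the iron-sulfur subunit, had 291, 276, 318, 389 and 338 CPM in Srgn-knockout 1 to 5 and 426, 299, 293, 349 and 352 CPM in wild-type 1 to 5 (log2 -0.09, edgeR adjusted p = 0.785). The groups overlapped for both. The anchor subunits were Sdhc, with 249 ± 31.5 CPM in Srgn-knockout fat and 252 ± 17.6 CPM in wild-type (log2 -0.02, edgeR adjusted p = 0.945), and Sdhd, with 304 ± 22.2 CPM in Srgn-knockout fat and 281 ± 18.8 CPM in wild-type (log2 0.11, edgeR adjusted p = 0.602). The 95% intervals of all 4 genes lay within ±0.5 on the log2 scale.

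Complex III had 3 members with higher and 6 with lower values, a median of -0.08, which was -0.03 with the authors' RPM (4 higher, 5 lower). Its largest difference lay in Uqcr10, which had 326, 336, 302, 428 and 401 CPM in Srgn-knockout 1 to 5 and 575, 469, 466, 556 and 411 CPM in wild-type 1 to 5. The groups overlapped through Srgn-knockout 4, which stood above wild-type 5. The means were 359 ± 53.4 CPM in Srgn-knockout fat and 496 ± 68.4 CPM in wild-type, a difference of -0.47 on the log2 scale (95% interval -0.74 to -0.19, SE 0.127, edgeR adjusted p = 0.216), the smallest p of the 77 members. Uqcrh, the hinge protein at the cytochrome c site, had 313 ± 26.3 CPM in Srgn-knockout fat and 353 ± 41 CPM in wild-type (log2 -0.17, edgeR adjusted p = 0.502). Cyc1, the subunit that passes electrons to cytochrome c, had 228, 246, 242, 265 and 264 CPM in Srgn-knockout 1 to 5 and 279, 279, 263, 299 and 259 CPM in wild-type 1 to 5 (log2 -0.15, edgeR adjusted p = 0.464). Both overlapped between the groups. The small subunit Uqcrq lay the other way, at 307 ± 29.4 CPM in Srgn-knockout fat and 276 ± 44.6 CPM in wild-type (log2 0.15, edgeR adjusted p = 0.621), and Uqcr11 had 591 ± 47.8 CPM in Srgn-knockout fat and 608 ± 35.3 CPM in wild-type (log2 -0.04).

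Complex IV, cytochrome c oxidase, had 2 tested members with higher and 10 with lower values, a median of -0.11, which was -0.07 with the authors' RPM (4 higher, 8 lower). Of the 9 subunits with a Cox name made in most tissues, 8 had lower values in Srgn-knockout fat, a median of -0.15, and 0 were past even the unadjusted threshold. These counts leave out Ndufa4 (log2 0.01) and its relative Ndufa4l2 (log2 0.23), which are grouped by name with complex I. Cox7a2 had 624, 586, 633, 692 and 663 CPM in Srgn-knockout 1 to 5 and 738, 715, 688, 804 and 693 CPM in wild-type 1 to 5 (log2 -0.19, SE 0.0868, edgeR adjusted p = 0.392). Cox6a1 had 1240.4, 1156, 1210.2, 1269 and 1305 CPM in Srgn-knockout 1 to 5 and 1414, 1345, 1347, 1682 and 1301 CPM in wild-type 1 to 5 (log2 -0.20, SE 0.0979, edgeR adjusted p = 0.415). The groups overlapped through Srgn-knockout 4 above wild-type 3 for Cox7a2 and through Srgn-knockout 5 above wild-type 5 for Cox6a1. Cox4i1, the subunit that ATP regulates, had 347 ± 32.9 CPM in Srgn-knockout fat and 361 ± 23.8 CPM in wild-type (log2 -0.06), Cox6b1 had 1139.7 ± 158 CPM in Srgn-knockout fat and 1192 ± 98.4 CPM in wild-type (log2 -0.06), and Cox8a had 19.1 ± 2.87 CPM in Srgn-knockout fat and 21.2 ± 1.18 CPM in wild-type (log2 -0.15). Cox7b was the general subunit with a higher value, 524 ± 46.9 CPM in Srgn-knockout fat and 497 ± 49.3 CPM in wild-type (log2 0.08, edgeR adjusted p = 0.775).

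Isoforms of complex IV subunits that are known for restricted expression had few reads. So did the general subunit Cox6c, with 4.51 ± 1.65 CPM in Srgn-knockout fat and 5.22 ± 0.83 CPM in wild-type (log2 -0.21). Few reads of an amplicon need not mean low expression of its gene. Cox4i2, the isoform best known from lung, had 10.7, 15.6, 15.1, 18.2 and 15.6 CPM in Srgn-knockout 1 to 5 and 14.1, 13.9, 8.73, 9.72 and 13 CPM in wild-type 1 to 5 (log2 0.34, SE 0.18, edgeR adjusted p = 0.451). Cox6a2, the isoform of heart and skeletal muscle, had 4.51, 1.32, 1.55, 2.55 and 1.2 CPM in Srgn-knockout 1 to 5 and 0.77, 4.11, 4.16, 4.8 and 5.04 CPM in wild-type 1 to 5. In each group Cox6a2 had 1 library apart from the other 4, high in Srgn-knockout 1 and low in wild-type 1, and its fold change was -0.74 (SE 0.491, edgeR adjusted p = 0.546). Skeletal muscle markers, 6 genes from Ckm to Atp2a1, summed to 19.7 to 55.6 CPM in Srgn-knockout fat and 13.7 to 29.3 CPM in wild-type, and their part in the Cox6a2 values was not tested.

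Complex IV isoforms known from the testis were read in libraries that also held RNA of sperm cells. Cox8c had 0, 0.55, 0.238, 0.383 and 1.64 CPM in Srgn-knockout 1 to 5 and 1.15, 0, 0, 3.77 and 0 CPM in wild-type 1 to 5. Cox7b2 had 0, 0.11, 0.119, 0.383 and 0.874 CPM in Srgn-knockout 1 to 5 and 1.06, 0, 0, 4.12 and 0 CPM in wild-type 1 to 5. Both were highest in wild-type 4, with Srgn-knockout 5 and wild-type 1 next. The spermatid genes Prm1, Prm2, Tnp1 and Odf1 together had 12.3, 7.81, 88.1, 50.6 and 124 CPM in Srgn-knockout 1 to 5 and 131, 0.956, 1.62, 432 and 6.64 CPM in wild-type 1 to 5, and were likewise highest in wild-type 4, wild-type 1 and Srgn-knockout 5. Where Cox8c and Cox7b2 are at 0, a level of up to 3 reads, 0.287 to 0.398 CPM by library, could have gone unseen, counting error only. Cox6b2, also known from the testis, had 6.08, 7.48, 10.4, 7.53 and 12.4 CPM in Srgn-knockout 1 to 5 and 11.4, 6.78, 6.9, 8.46 and 10.6 CPM in wild-type 1 to 5 (log2 -0.01, edgeR adjusted p = 0.990). It was highest in Srgn-knockout 5 and wild-type 1, while wild-type 4 lay within the range of the other libraries.

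**Figure D2:**
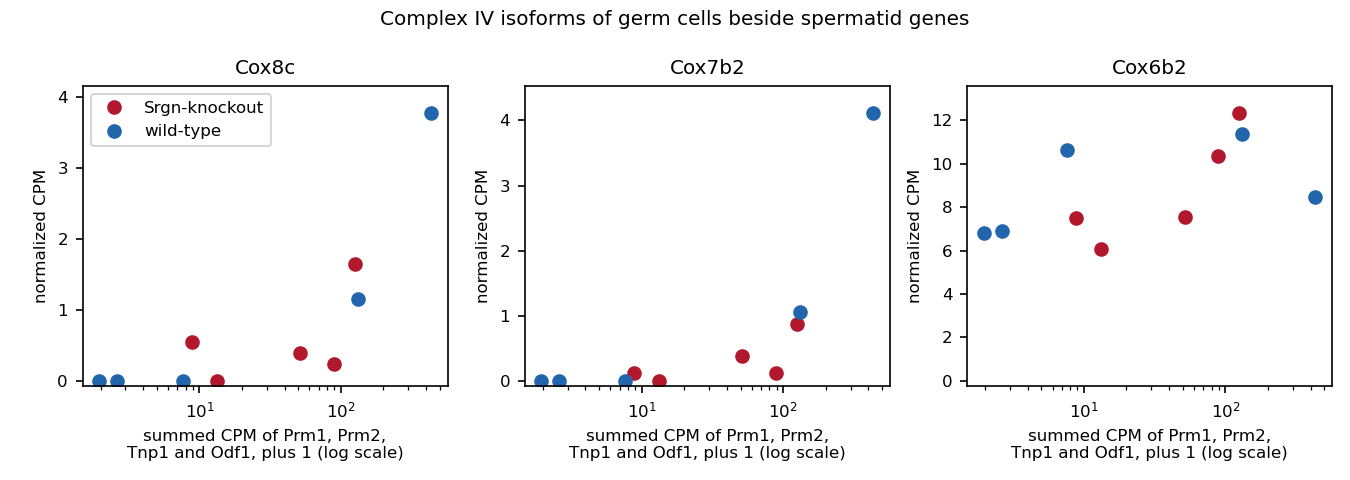
Normalized CPM of Cox8c, Cox7b2 and Cox6b2 in each library against the summed CPM of 4 spermatid genes plus 1 on a log axis, with Srgn-knockout in red and wild-type in blue. Wild-type 4, at 432 CPM of spermatid genes, has the highest Cox8c (3.77 CPM) and Cox7b2 (4.12 CPM) but not the highest Cox6b2.

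The genes named for ATP synthase had 5 tested members with higher and 7 with lower values, a median of -0.11, which was -0.07 with the authors' RPM. These counts include Atp5s (log2 0.21) and Atp5sl (log2 -0.12), which carry the name but are not structural subunits. Of the proton-conducting membrane part, the rule found Atp5g3, Atp5j2 and Atp5k, and all 3 were lower. Of the peripheral stalk that holds the head still, it found Atp5j and Atp5o, and these 2 were higher, Atp5o by only 0.03. Neither part is complete in the set, and Atp5g1 and Atp5g2, for example, were not among the members. The catalytic head had 2 higher and 3 lower. No difference between these parts was tested. In the head, Atp5c1 had 313, 366, 329, 372 and 387 CPM in Srgn-knockout 1 to 5 and 281, 256, 285, 294 and 307 CPM in wild-type 1 to 5. Its groups did not overlap, and the means were 353 ± 31.1 CPM in Srgn-knockout fat and 285 ± 19.1 CPM in wild-type (log2 0.31, SE 0.0895, edgeR adjusted p = 0.225). Its pseudogene Atp5c1-ps had 36 reads in all libraries together. Atp5e, the epsilon subunit that sits on the same shaft, lay the other way, with 160.5, 177, 154, 142 and 152 CPM in Srgn-knockout 1 to 5 and 209, 222, 199, 225 and 151 CPM in wild-type 1 to 5. Wild-type 5 stood apart from the other wild-type libraries, within the Srgn-knockout range, and the fold change was -0.36 (SE 0.112, edgeR adjusted p = 0.247). Atp5b, the catalytic beta subunit, had 1389.6 ± 115 CPM in Srgn-knockout fat and 1304 ± 94.4 CPM in wild-type (log2 0.09, edgeR adjusted p = 0.718).

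In the membrane part, Atp5g3, one of the genes for the c ring that turns with the proton flow, had 1164, 1036, 1117, 1193 and 1252 CPM in Srgn-knockout 1 to 5 and 1269, 1476, 1261, 1582 and 1312 CPM in wild-type 1 to 5. All Srgn-knockout libraries lay below all wild-type libraries, with a narrow gap between Srgn-knockout 5 and wild-type 3. The fold change was -0.26 (SE 0.101, edgeR adjusted p = 0.329). Atp5k, the e subunit that takes part in dimers of the enzyme, had 230.3, 203, 215, 206 and 267 CPM in Srgn-knockout 1 to 5 and 292, 317, 274, 305 and 217 CPM in wild-type 1 to 5 (log2 -0.33, SE 0.117, edgeR adjusted p = 0.294). Wild-type 5 was again the lowest wild-type library and overlapped with Srgn-knockout. In the peripheral stalk, Atp5j, the coupling factor, chosen after its values were seen, had 142, 156, 171, 154 and 151 CPM in Srgn-knockout 1 to 5 and 128, 116, 141, 122 and 147 CPM in wild-type 1 to 5 (log2 0.24, SE 0.089, edgeR adjusted p = 0.300).

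**Figure D3:**
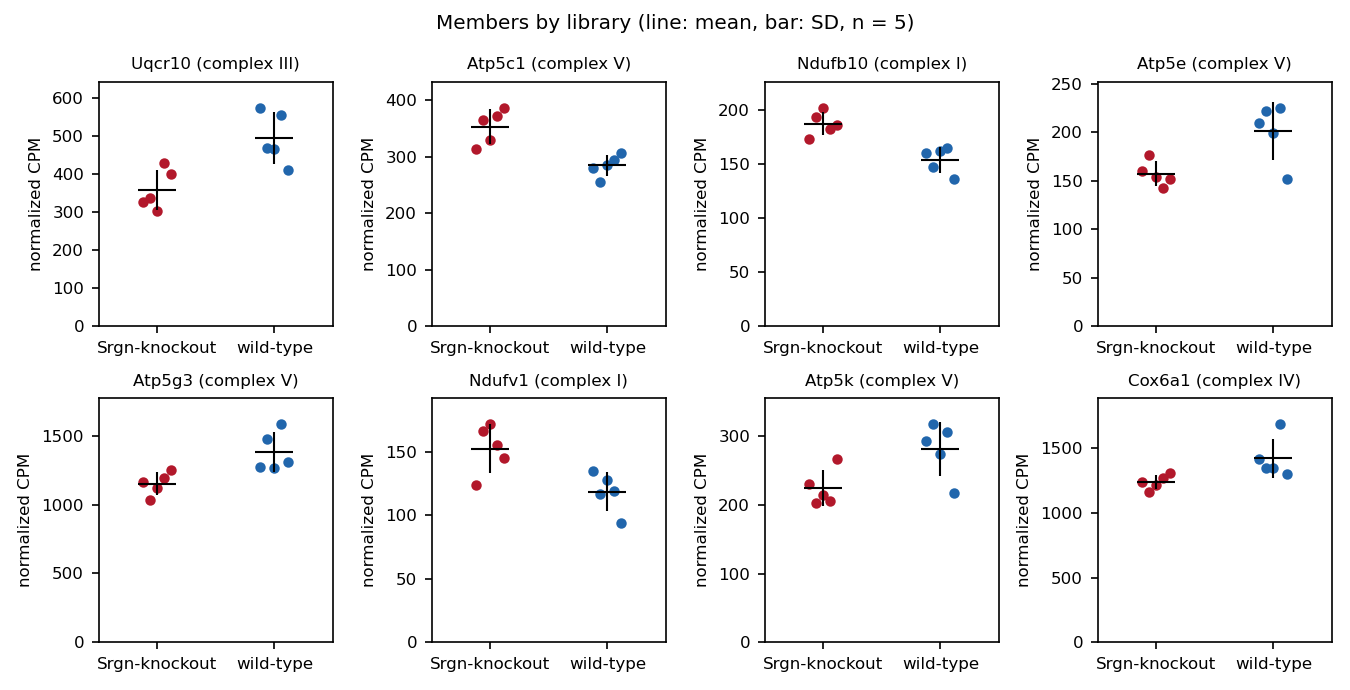
Normalized CPM of 8 members in each library, with Srgn-knockout left in red and wild-type right in blue; lines are means and bars SD (n = 5 each), and axes start at 0. The groups are apart in Atp5c1, Ndufb10 and Atp5g3 and overlap in the other panels, where wild-type 5 is often the lowest wild-type library.

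The call of single members depended on the test. The DESeq2 Wald test on the same filtered genes called 2 members higher, Atp5c1 (adjusted p = 0.0420) and Ndufb10 (adjusted p = 0.0457), and 1 lower, Uqcr10 (adjusted p = 0.0402). Over the 12447 genes with an adjusted p it called 0.948% higher and 0.868% lower, beside 2.60% and 1.30% of the members. With limma-voom 0 members passed, and the smallest adjusted p was 0.218.

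The level of a complex in a library was taken as the mean of its members' log2 CPM after subtracting each gene's mean over the 10 libraries. Complex I had -0.06, 0.00, 0.09, 0.05 and 0.11 in Srgn-knockout 1 to 5, against -0.03, -0.06, -0.01, -0.01 and -0.09 in wild-type 1 to 5, a difference of 0.08 with an SD within groups of 0.054. Complex III had -0.18, -0.09, -0.08, 0.07 and 0.08 in Srgn-knockout 1 to 5, against 0.13, 0.05, -0.01, 0.16 and -0.13 in wild-type 1 to 5, a difference of -0.08 with an SD of 0.112. Complex IV had -0.12, -0.28, -0.10, 0.10 and 0.09 in Srgn-knockout 1 to 5, against -0.08, 0.06, -0.04, 0.20 and 0.15 in wild-type 1 to 5, a difference of -0.12 with an SD of 0.142. The groups overlapped for every complex. Complexes II and V differed by 0.03 and -0.05, with SDs of 0.107 and 0.075, and all members together by 0.01 with an SD of 0.063. Srgn-knockout 1 had the lowest level of its group in complexes I, II, III and V, and Srgn-knockout 2 in complex IV.

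**Figure D4:**
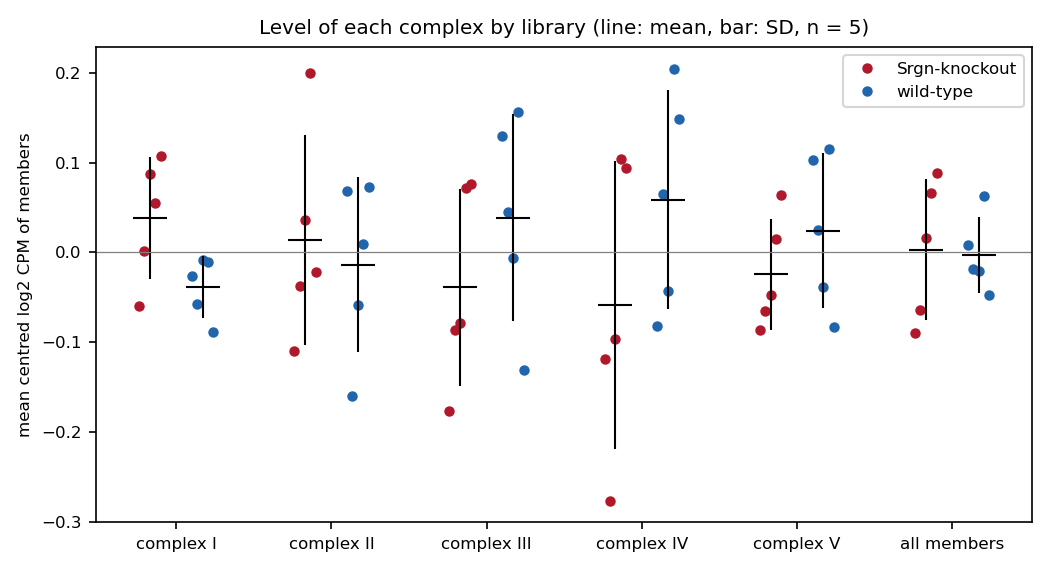
Mean centred log2 CPM of the members of each complex, and of all members, by library, with Srgn-knockout left in red and wild-type right in blue; lines are means and bars SD (n = 5 each). The groups overlap in every column, with Srgn-knockout 0.08 higher for complex I and 0.12 lower for complex IV on average.

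After removing the group means, pairs of complex III genes had a median Pearson correlation over the 10 libraries of 0.596, pairs of complex IV genes 0.468, of complex II genes 0.426, of complex V genes 0.261 and of complex I genes 0.079. Pairs of all tested genes with a mean of at least 100 CPM had a median of 0.116. These values share their libraries and are a description with no test. Cyc1 followed the mean of the other members most closely (r = 0.868), with Atp5d of the ATP synthase head (0.866) and Cox6c (0.852), which were chosen after their values were seen. Ndufa9, an accessory subunit near the coenzyme Q site, lay at the other end (-0.619) and was chosen in the same way.

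Short transcripts tended to have the lower fold changes among the members. Spearman's rank correlation between log2 fold change and the length of the longest protein-coding transcript was 0.34 over the 77 members and 0.41 over the 55 with at least 100 CPM. Over all 12540 tested genes with a length it was 0.008, and over those of at least 100 CPM it was -0.08. Among the 39 members of at most 955 bases, the members' median, 14 had higher and 25 lower values, a median of -0.06, while the 38 longer ones had 23 higher and 15 lower, a median of 0.09. All tested genes at or under 955 bases, 584 in number, had a median of 0.02. The short end holds Atp5k at 371 bases, Ndufa1 at 419, Atp5e at 421, Uqcr10 at 434 and Uqcr11 at 445. Length and complex go together in part. All tested complex IV members, 2 higher and 10 lower, were at or under 955 bases except Cox7b at 1001. The part of the complex in the pattern by length was not tested. These correlations are across genes, which are not independent replicates, and are given with no test.

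**Figure D5:**
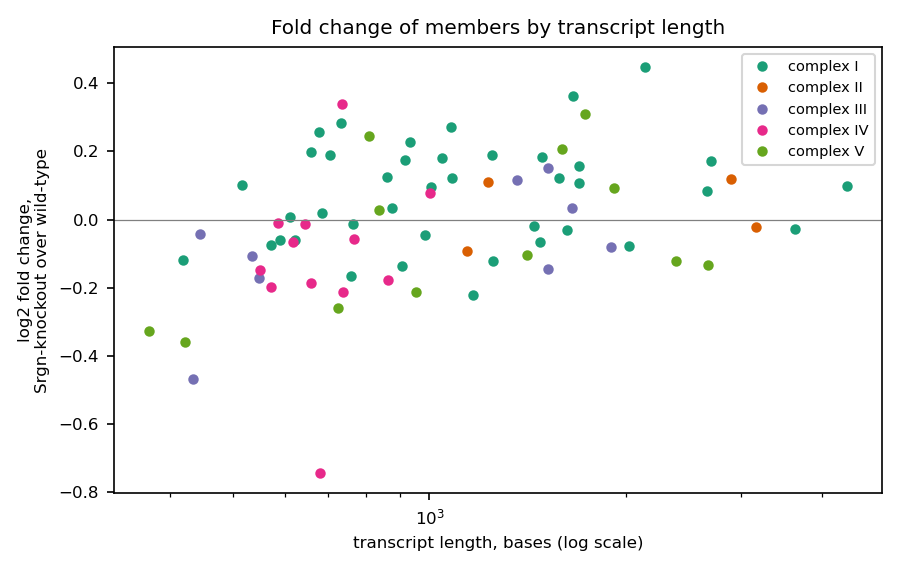
Log2 fold change (Srgn-knockout over wild-type) of the 77 tested members against the length of their longest protein-coding transcript in bases on a log axis, coloured by complex. Members at or under 955 bases have a median of -0.06 and longer ones of 0.09.

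Other genes that serve the respiratory chain gave 0 calls in edgeR in any list. Of 7 tested complex I assembly factors with other names, 3 had higher and 4 lower values (median -0.11), and the smallest p belonged to Ecsit, with 30.8 ± 2.23 CPM in Srgn-knockout fat and 25.2 ± 1.04 CPM in wild-type (log2 0.29, edgeR adjusted p = 0.247). Of 4 complex II assembly factors, 3 were higher and 1 lower (median 0.11), with Sdhaf4 at 65.2 ± 4.48 CPM in Srgn-knockout fat and 59.9 ± 6.00 CPM in wild-type. Of 6 for complex III, 2 were higher and 4 lower (median -0.06), with Ttc19 at 20.1 ± 2.26 CPM in Srgn-knockout fat and 23.2 ± 4.64 CPM in wild-type. The groups did not overlap for Ecsit and overlapped for Sdhaf4 and Ttc19. Of 17 for complex IV, 9 were higher and 8 lower (median 0.01). Among them Taco1, which activates translation of a mitochondrial subunit of complex IV, had 30.6, 26.4, 29.5, 33 and 35.7 CPM in Srgn-knockout 1 to 5 and 41.5, 41.2, 40.3, 42.3 and 34.5 CPM in wild-type 1 to 5 (log2 -0.36, edgeR adjusted p = 0.222).

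In the list of further ATP synthase genes outside the rule, mostly assembly and inhibitor genes, the 3 tested all had higher values (median 0.06). They were Atpaf2, Tmem70 and 2010107E04Rik (log2 0.06), the last neither an assembly nor an inhibitor gene. The inhibitor Atpif1, with 28 reads in all libraries, did not pass the filter on low counts. Atpaf2, a chaperone that helps to assemble the head of ATP synthase, had 16.7, 18.3, 21.3, 20.8 and 22.3 CPM in Srgn-knockout 1 to 5 and 10, 11.1, 17.4, 11 and 10.7 CPM in wild-type 1 to 5. Wild-type 3 stood above the other wild-type libraries and overlapped with Srgn-knockout 1, and the fold change was 0.72 (SE 0.164, edgeR adjusted p = 0.191). Of 4 tested ADP/ATP carriers and their neighbours, 3 were higher and 1 lower (median 0.05). Slc25a4, an exchanger of ADP and ATP across the inner membrane, had 407, 423, 445, 447 and 459 CPM in Srgn-knockout 1 to 5 and 325, 363, 362, 329.9 and 401 CPM in wild-type 1 to 5, with no overlap (log2 0.29, edgeR adjusted p = 0.238). Of 14 genes of electron carriers and coenzyme Q synthesis, 9 were higher and 5 lower (median 0.04), with Coq6 at 27.5 ± 1.98 CPM in Srgn-knockout fat and 33.5 ± 5.45 CPM in wild-type (log2 -0.28).

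The 16 tricarboxylic acid cycle genes, which feed the chain, had 9 higher and 7 lower (median 0.03), with Dlst of the oxoglutarate dehydrogenase complex at 110.5 ± 8.81 CPM in Srgn-knockout fat and 92.7 ± 10.3 CPM in wild-type (log2 0.25, edgeR adjusted p = 0.313). The 13 genes of mitochondrial transcription and biogenesis had 5 higher and 8 lower (median -0.07), with the mitochondrial DNA polymerase Polg at 45.7 ± 5.64 CPM in Srgn-knockout fat and 53.8 ± 3.58 CPM in wild-type (log2 -0.24, edgeR adjusted p = 0.361). The subunit isoforms of thermogenic fat that the rule leaves out had higher values without passing. Cox7a1 had 6.34 ± 1.39 CPM in Srgn-knockout fat and 4.3 ± 1.31 CPM in wild-type (log2 0.57, edgeR adjusted p = 0.376), and Cox8b had 96.7 ± 46.5 CPM in Srgn-knockout fat and 63.1 ± 22.7 CPM in wild-type (log2 0.62, edgeR adjusted p = 0.502). Ucp1, the uncoupling protein, had 0.441 ± 0.269 CPM in Srgn-knockout fat and 0.724 ± 0.248 CPM in wild-type and did not pass the filter on low counts. The markers of brown or beige adipocytes, 6 genes that include these 3, had higher values for 5 of 5 tested (median 0.54, 1 at an unadjusted p under 0.05), and summed to 86.6, 59.4, 100.01, 202 and 151 CPM in Srgn-knockout 1 to 5 and 38.3, 63.0, 101, 105 and 101 CPM in wild-type 1 to 5. The 2 tested skeletal muscle markers were also higher (median 0.49), and the part of muscle in the Cox7a1 and Cox8b values was not tested.

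Markers of the cells in the tissue were read beside these values. Adipocyte markers, 10 of 10 tested, summed to 39671 to 60024 CPM in Srgn-knockout fat and 40131 to 67517 CPM in wild-type, with a median fold change of -0.05. All 8 tested macrophage markers, all 7 T-cell markers and all 4 B-cell markers had lower values in Srgn-knockout, with 0 past the threshold, and at an unadjusted p under 0.05 there were 3, 6 and 2. Their sums were 1748 to 3361 CPM in Srgn-knockout fat and 1667 to 5792 CPM in wild-type for macrophages, 16.5 to 22.3 CPM in Srgn-knockout fat and 25.6 to 66.2 CPM in wild-type for T cells, and 8.82 to 16.2 CPM in Srgn-knockout fat and 18.5 to 37.0 CPM in wild-type for B cells. Endothelial markers summed to 579 to 804 CPM in Srgn-knockout fat and 522 to 689 CPM in wild-type, with 4 of 5 higher (median 0.41, 3 at an unadjusted p under 0.05, 0 past the threshold). The 12 epididymis and testis markers summed to 9.46 to 3377 CPM in Srgn-knockout fat and 1.05 to 869 CPM in wild-type, most in Srgn-knockout 3 and 5 and wild-type 4, with Defb30 at 0 in all libraries. The part of these cells and tissues in the members' values was not tested. Without those 3 libraries, 4 of 77 members were at an unadjusted p under 0.05, 2.60% higher and 2.60% lower, beside 2.13% and 2.04% of all tested genes. They were Atp5c1 (log2 0.31), Ndufb10 (log2 0.27), Atp5k (log2 -0.37) and Uqcr10 (log2 -0.40). The smallest adjusted p of the members was 0.999, and the median of complex I was 0.04.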

How the data were processed

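Ion AmpliSeq libraries of 10 mice were sequenced with an Ion S5 XL, per the labels' protocols. The authors deposited whole-number counts for 23930 amplicons, 1 per gene, and a table of RPM values, which equal the deposited counts scaled to library totals (largest difference 0.00059109). The build was mm9, per the submitters' processing notes; aligner and counter: not given in the sources used here. All value columns were matched to a sample, and 0 were left over.

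Counts were analysed in R 4.3.3 with edgeR 4.0.16: filterByExpr (minimum count 10, minimum total 15), scaling by TMM (trimmed mean of M-values) and the robust quasi-likelihood test, two-sided, with no covariate, Benjamini-Hochberg adjustment over 12719 genes and a threshold of 0.05. Intervals are 95%, from the SE and the total degrees of freedom of each gene, which are the residual ones plus the prior ones of the fit. Library levels and correlations used log2 CPM with a prior count of 2. Alternatives were DESeq2 1.42.0, limma 3.58.1 (voom on counts, and trend on log2 of the authors' RPM plus 1), other scalings, no filter, and leaving out libraries. The edgeR step was tested on simulated data. Replicates are separate animals numbered in accession order, which pairs nothing, and p-values measure the spread between them. The reads come from PCR and carry no molecular identifiers, so the floor of 3 reads covers counting error alone.

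Per complex, the text names the 3 members of smallest p, the one of highest mean CPM, the largest fold changes in both directions, all Sdh genes and the isoform sets, and, per list, the gene of smallest p. Others are marked in the text as picked with their values known. The members and lists were chosen with earlier results of these data known. Transcript lengths come from GENCODE M21 (77 of 77 tested members and 12540 of 12719 tested genes), and promoters from RefSeq on GRCm38.p6, matched by symbol or synonym; no coordinate was converted between builds.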

Additional observations from a re-analysis of the deposited data

Results flagged for a closer look

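Dixon's criterion was applied to 76 sets of 5 library values, from named members and from the levels of each complex and of all members. Of these sets, 4 held a library whose gap to the nearest other was large for the range of its group. Chance flags about 1 in 20 such sets, so the number is near what chance gives. Ndufaf5 reached 11.1 CPM in Srgn-knockout 5, where the nearest Srgn-knockout library had 7.25 CPM. Sdhc reached 303 CPM in Srgn-knockout 4, with 244 CPM in the nearest. Cox6a2 had 0.77 CPM in wild-type 1, with 4.11 CPM in the nearest wild-type library. Cox7b2 reached 4.12 CPM in wild-type 4, the wild-type library with the most spermatid RNA, with 1.06 CPM in the nearest. The cause of these values was not tested.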

How the results depend on the processing

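In edgeR 0 members passed under each alternative scaling, without the filter and without each library in turn, and likewise with limma-voom and limma-trend, while DESeq2 called 2 members higher and 1 lower (Atp5c1 0.31, Ndufb10 0.28, Uqcr10 -0.47) and, over all genes, 118 higher and 108 lower. Without the filter 3 genes were lower over all genes. Without 1 library at a time, 0 members and 0 genes were higher past the threshold, and 1 to 2 genes and 0 members were lower. At an unadjusted p under 0.05 the members with higher values numbered 11 with upper-quartile factors, 13 with library totals alone, 13 with limma-trend and 2 without the 3 libraries of most epididymis RNA, where 8.44%, 9.40%, 9.21% and 2.13% of all genes were higher, and 5 to 12 without 1 library. Those with lower values numbered 8 with DESeq2 and 2 without the 3 libraries, where 6.81% and 2.04% of all genes were lower, and 3 to 7 without 1 library. With library totals alone the medians of complexes I to V were 0.15, 0.09, -0.03, -0.06 and -0.06. The median log2 fold change without 1 library was -0.02 to 0.02 for all members, 0.06 to 0.12 for complex I, -0.01 to 0.06 for complex II, -0.14 to -0.04 for complex III, -0.18 to -0.06 for complex IV and -0.14 to -0.08 for complex V, and that of complex I was 0.035 without the 3 libraries. Of 540 values of 30 named members over 18 alternatives, 515 kept direction and side of the threshold. The 22 that changed sign were in Cox6b2 (0.0221 with upper-quartile factors, 0.0419 with library totals, 0.0194 with limma-trend, -0.17 to 0.10 without 1 library), Sdhc (0.00809, 0.025 and 0.0169 with the same 3, 0.0811 without the 3 libraries, -0.10 to 0.0178 without 1 library), Uqcr11 (0.0111 with library totals, 0.00265 with limma-trend) and Ndufa4 (-0.00169 without the filter, -0.0119 without the 3 libraries, -0.0286 to 0.0520 without 1 library). The cause was not tested. Scaling moved the median of all genes by at most 0.05. No paired analysis was possible because replicate numbers only name the animals. Cox7b2, Cox8c and Atp5c1-ps, with 60, 70 and 36 reads in all libraries, were too low to test.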
